A study of Mus musculus with 6 samples.

Results

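Neuronal pentraxins and secreted C1q-like proteins are extracellular organizers of synapses, and the RNA of 8 such genes was followed through depolarization of cultured mouse cortical neurons. The genes are a named list chosen from these families, not the whole families, with no threshold on their values. The list leaves out the relatives C1ql1, C1ql4 and Cbln3, and was drawn up with earlier results of these data known. The 8 genes are the pentraxins Nptx1, Nptx2 and Nptxr, the C1q-like genes C1ql2 and C1ql3, and the cerebellins Cbln1, Cbln2 and Cbln4. All 8 were found among the 43432 genes listed in each expression table. The neurons were wild-type C57BL/6 cells taken from the cortex at E16.5, with embryos of both sexes pooled, and kept 7 days in vitro. Every culture, the 0 h controls included, was silenced overnight with 1 µM TTX, which blocks voltage-gated sodium channels, and 100 µM DL-AP5, which blocks NMDA receptors. KCl at 55 mM was then applied for 0 h, 2 h or 6 h, with 2 biological replicates per time. Whether the replicates came from separate dissections was not given in the sources used here, so p-values measure only the spread between these libraries.

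Neuronal pentraxins assemble into large complexes outside the cell, where they bind and cluster AMPA receptors at excitatory synapses. Nptx1 and Nptx2 are secreted, while Nptxr is held in the membrane and can be released by the protease encoded by Adam17. C1q-like proteins and cerebellins carry a globular C1q domain and bridge the synaptic cleft: cerebellins join presynaptic neurexins to postsynaptic delta glutamate receptors, and C1q-like proteins bind the adhesion receptor encoded by Adgrb3. Nptx2 is long known as a gene induced by neuronal activity, and Cbln1 is best known from cerebellar granule cells.

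The expected counts, that is, reads assigned to a gene by the maximum likelihood method of RSEM, summed to between 25959298 and 28573067 per library. Fos, Npas4 and Bdnf, genes that respond to calcium entry, were called higher at 2 h and at 6 h than at 0 h. Normalized counts below are expected counts divided by a size factor per library. They compare one gene between libraries. TPM, the deposited measure of transcript abundance, is corrected for transcript length and is used wherever different genes are compared. Calls required an adjusted p of at most 0.05 in DESeq2 (Wald test with Benjamini-Hochberg adjustment over all genes tested) together with a log2 fold change above 1 or below -1. The 2 h replicates stood further apart than those of the other times. Their log2 difference had an SD of 0.437 across genes, against 0.263 at 0 h and 0.218 at 6 h, and at each time it followed GC content across genes (Spearman's rho -0.747 at 2 h, -0.399 at 0 h and -0.283 at 6 h, a description, since genes are not independent replicates).

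The members moved in different directions. At 2 h against 0 h, 1 of the 7 members with an adjusted p was called higher (Nptx2) and none was called lower, while 3.62% and 5.94% of all 16840 genes with an adjusted p were called higher and lower. edgeR also called no member lower at 2 h, and 3 members (Nptx2, Nptxr and Cbln4) had an unadjusted p under 0.05 in DESeq2. At 6 h against 0 h, 2 members were called higher (Nptx1 and Nptx2) and 2 lower (Cbln1 and Cbln4), against 9.1% and 10.2% of 17277 genes. At 6 h against 2 h, 3 were called higher (Nptx1, Nptx2 and C1ql3) and 1 lower (Cbln1), against 10.1% and 8.02% of 16404 genes. Without the fold threshold, 2, 6 and 6 members passed on adjusted p in the 3 comparisons, beside 26.5%, 45.3% and 45.3% of all genes. The median log2 fold change of the 7 members was -0.10, 0.33 and 0.50 in the 3 comparisons, beside 0.02, 0.00 and -0.01 over all genes with an adjusted p. The comparisons share libraries and are not independent of each other. C1ql2 had no adjusted p.

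**Figure D1:**
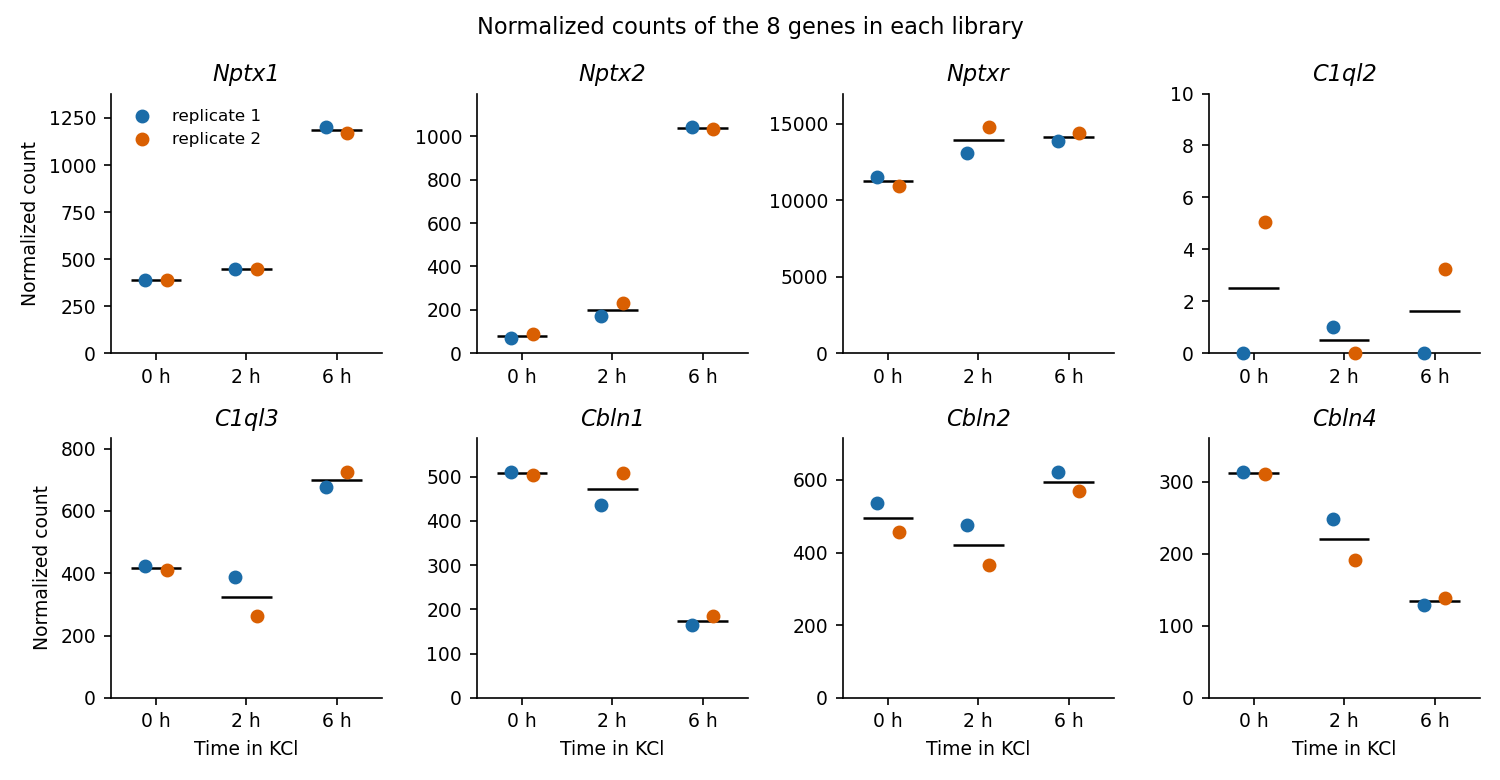
Normalized counts of the 8 genes in each of the 6 libraries (vertical axis, starting at 0 and scaled for each gene) against hours in KCl (horizontal axis), with a point per replicate and a bar at the mean of each time. Nptx1 and Nptx2 lie highest at 6 h, Cbln1 and Cbln4 lowest at 6 h, and C1ql2 stays at or near 0.

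Nptx2 (ENSMUSG00000059991, GRCm38 chr5:144545902-144557478, plus strand) encodes the secreted pentraxin also called NARP. Its normalized counts were 68.35 and 88.49 before KCl, 170.8 and 230.5 at 2 h, and then 1041 and 1035 at 6 h. In this gene each time stood clear of the one before it, and the 2 replicates at 6 h were nearly level. The means were 78.4 ± 14.2 at 0 h, 201 ± 42.3 at 2 h and 1038 ± 4.57 at 6 h (SD, n = 2). The rise at 2 h was 2.55-fold (log2 fold change 1.35, SE 0.24, DESeq2 adjusted p = 1.58e-07). At 6 h Nptx2 was 13.2-fold above 0 h (log2 fold change 3.72, 95% interval 3.28 to 4.17, adjusted p = 2.51e-58 in DESeq2). The step from 2 h to 6 h alone was 5.18-fold (log2 fold change 2.37, SE 0.21, adjusted p = 4.98e-27). Among 11183 genes averaging 100 normalized counts or more, Nptx2 had the 18th highest log2 fold change at 6 h against 0 h, and stood 169th at 2 h against 0 h. The 2 h call, unlike the 6 h calls, was lost in limma on log2(TPM + 1), where the log2 fold change was 0.92.

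Nptx1 (ENSMUSG00000025582, chr11:119538719-119547753, minus strand), the other secreted pentraxin, rose at 6 h without a call at 2 h. The libraries held normalized counts of 389.7 and 391 before KCl, 447.4 and 446.6 at 2 h, and then 1200 and 1169 at 6 h. Replicates were close together at every time, and the 6 h libraries stood well above the other 4. At 2 h the log2 fold change was 0.20, with a 95% interval from -0.07 to 0.46 and an adjusted p of 0.334. At 6 h Nptx1 was 3.03-fold above 0 h (log2 fold change 1.60, SE 0.13, DESeq2 adjusted p = 5.41e-32) and 2.65-fold above 2 h (log2 fold change 1.41, SE 0.13, adjusted p = 1.56e-24).

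Nptxr (ENSMUSG00000022421, chr15:79786351-79804766, minus strand), the membrane-anchored member, was the most abundant of the 8 genes at every time. It had normalized counts of 11557 and 10955 before KCl, 13108 and 14770 at 2 h, and then 13865 and 14420 at 6 h. The 0 h libraries were the lowest, and the 2 h and 6 h libraries overlapped. The log2 fold change was 0.31 at 2 h (SE 0.11, DESeq2 adjusted p = 0.0237) and 0.33 at 6 h (SE 0.11, adjusted p = 0.00832), so both passed on p and missed the fold threshold. Between 2 h and 6 h the log2 difference was 0.02, with a 95% interval from -0.20 to 0.24. Nptxr shares exons with Npcd on the same strand, its counts were not whole numbers, and Npcd itself had a mean expected count of 3.845.

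The makeup of the pentraxin RNA moved with these changes. Nptx2 made up 1.17% and 1.59% of the summed TPM of Nptx1, Nptx2 and Nptxr before KCl, 2.55% and 3.05% at 2 h, and then 12.6% and 12.1% at 6 h. Nptxr still made up 80.8% and 81.6% of that sum at 6 h. The ratio of Nptx2 TPM to Nptx1 TPM was 0.383 and 0.496 before KCl, 0.837 and 1.13 at 2 h, and then 1.91 and 1.94 at 6 h. Nptx2 was thus the less abundant of the secreted pair in both 0 h libraries and the more abundant in both 6 h libraries, with 1 library on each side at 2 h. The ratio of Nptxr TPM to the sum of Nptx1 and Nptx2 TPM was 22.7 and 19.8 before KCl, 16.9 and 16.4 at 2 h, and then 4.21 and 4.44 at 6 h. The ratios are given as a description and were not tested. An exact permutation test of 2 libraries against 2 cannot give a two-sided p below 0.333, and no model was fitted to them.

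**Figure D2:**
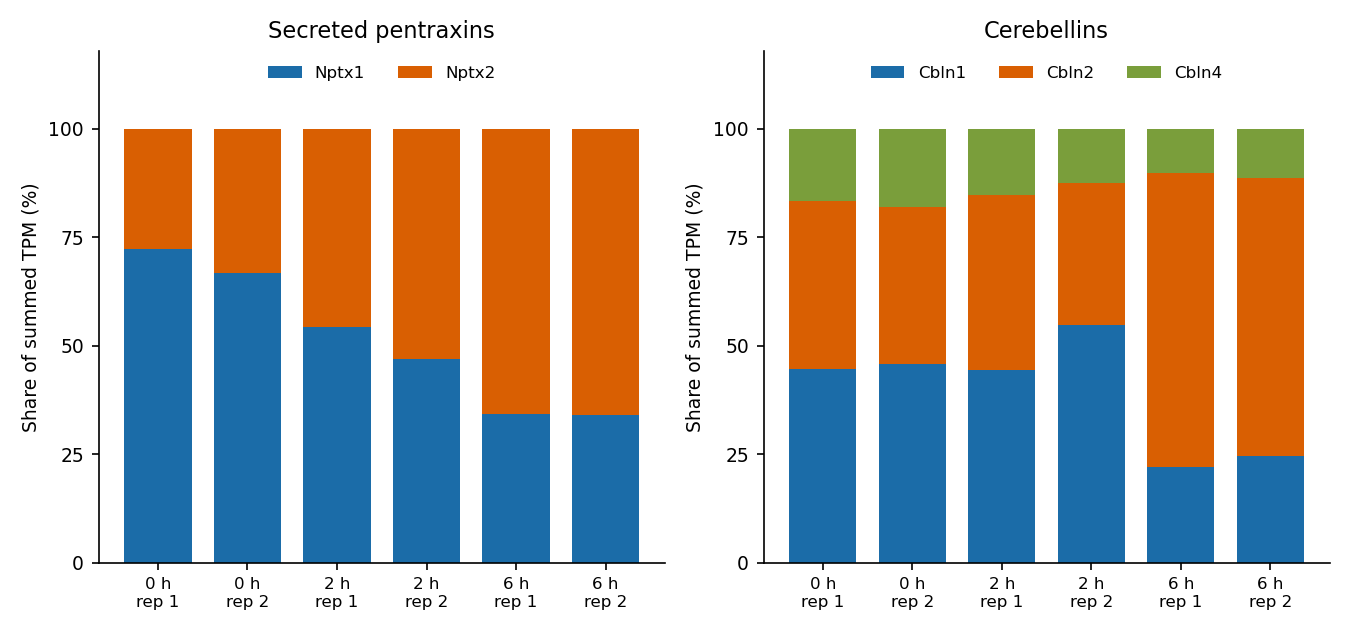
Shares of summed TPM in percent (vertical axis, 0 to 100) in each of the 6 libraries (horizontal axis), for the secreted pentraxins Nptx1 and Nptx2 (left) and for the cerebellins Cbln1, Cbln2 and Cbln4 (right). Nptx2 takes 27.7% and 33.2% of the secreted pair at 0 h and 65.6% and 66% at 6 h, and Cbln2 takes 67.8% and 63.9% of the cerebellins at 6 h.

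C1ql3 (ENSMUSG00000049630, chr2:13003457-13011806, minus strand) encodes a secreted ligand of the receptor Adgrb3. Its libraries gave normalized counts of 423.4 and 408.7 before KCl, 386.5 and 261.6 at 2 h, and then 675.2 and 724.9 at 6 h. The 3 times did not overlap, but the 2 h replicates lay far apart, with the second the lower. At 2 h the log2 fold change was -0.36 (95% interval -0.79 to 0.07, adjusted p = 0.242). At 6 h C1ql3 stood 1.68-fold above 0 h, which passed on p and missed the fold threshold (log2 fold change 0.75, SE 0.21, DESeq2 adjusted p = 0.00159). It was called higher at 6 h than at 2 h, at 2.16-fold (log2 fold change 1.11, SE 0.22, adjusted p = 2.01e-06). Without the second 2 h replicate that log2 fold change was 0.87, below the threshold, and the call was lost. Gm37824 and Gm37811 overlap C1ql3 on the opposite strand, with mean expected counts of 33.17 and 5.07, and whether counting used strand was not given in the sources used here.

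C1ql2 (ENSMUSG00000036907, chr1:120340582-120343174, plus strand), a close relative of C1ql3 known from hippocampal mossy fibre synapses, was at the limit of detection. It had 0 and 6 expected counts at 0 h, 1 and 0 at 2 h, then 0 and 3 at 6 h. A floor of 3 counts corresponds to between 0.106 and 0.12 TPM for this gene, a limit that covers counting error only, and no fold change is given. The nearest other relative, C1ql1, had 8 to 26 expected counts, and C1ql4 had none in any library.

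Cbln1 (ENSMUSG00000031654, chr8:87468405-87472609, minus strand) fell late. Normalized counts of Cbln1 stood at 510.4 and 503.9 before KCl, 435.4 and 508.6 at 2 h, and then 164.8 and 183.9 at 6 h. The 0 h and 2 h libraries overlapped, and both 6 h libraries lay far under them. At 2 h the log2 fold change was -0.10, with a 95% interval from -0.44 to 0.23. At 6 h Cbln1 was 2.91-fold below 0 h (log2 fold change -1.54, SE 0.18, DESeq2 adjusted p = 1.14e-15) and 2.71-fold below 2 h (log2 fold change -1.44, SE 0.19, adjusted p = 1.72e-13). At 0 h Cbln1 was the most abundant of the 5 C1q-family members, with a mean of 22.3 ± 0.813 TPM (SD, n = 2). Of 5 genes fixed as markers of cerebellar granule cells, which are not part of the dissected tissue, 4 were under 1 TPM in every library, Gabra6 was at 0 in every library, and the summed level of the 5 was 4.11 to 10.6 TPM.

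Cbln4 (ENSMUSG00000067578, chr2:172036233-172043466, minus strand), a cerebellin that also binds the receptors Dcc and Neo1, was lower at each later time. Normalized counts of Cbln4 stood at 313.4 and 311 before KCl, 248.7 and 191.3 at 2 h, and then 129.5 and 138.7 at 6 h. No library of one time overlapped those of another. The difference at 2 h did not pass (log2 fold change -0.50, 95% interval -0.93 to -0.07, adjusted p = 0.074). At 6 h Cbln4 was 2.33-fold below 0 h (log2 fold change -1.22, SE 0.23, DESeq2 adjusted p = 5.09e-07). From 2 h to 6 h it was 1.64-fold lower, which passed on p and missed the fold threshold (log2 fold change -0.71, SE 0.23, adjusted p = 0.00593).

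Cbln2 (ENSMUSG00000024647, chr18:86711110-86718283, plus strand), which like Cbln1 binds neurexins and delta receptors, was called in no comparison. Its normalized counts were 535.3 and 455.1 before KCl, 475.3 and 366 at 2 h, and then 621.7 and 569 at 6 h. The 6 h libraries were the highest, and the 0 h and 2 h libraries overlapped. Against 0 h the log2 fold change was -0.23 at 2 h (95% interval -0.62 to 0.15) and 0.27 at 6 h (95% interval -0.12 to 0.65). At 6 h against 2 h it was 0.50 (SE 0.20, DESeq2 adjusted p = 0.027), below the fold threshold.

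With Cbln1 and Cbln4 lower, Cbln2 made up the larger part of the cerebellin RNA at 6 h. Cbln1 held 44.7% and 45.8% of the summed TPM of Cbln1, Cbln2 and Cbln4 before KCl, 44.5% and 54.8% at 2 h, and then 22% and 24.7% at 6 h. Cbln2 held 38.7% and 36.2% before KCl, 40.2% and 32.7% at 2 h, and then 67.8% and 63.9% at 6 h. The order of the pair was Cbln1 above Cbln2 in all 4 libraries of 0 h and 2 h and Cbln2 above Cbln1 in both 6 h libraries. The summed TPM of the 3 cerebellins was 51.1 and 47.4 before KCl, 38.8 and 37.2 at 2 h, and then 30.2 and 29.7 at 6 h, so the total at 6 h was also the lowest.

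**Figure D3:**
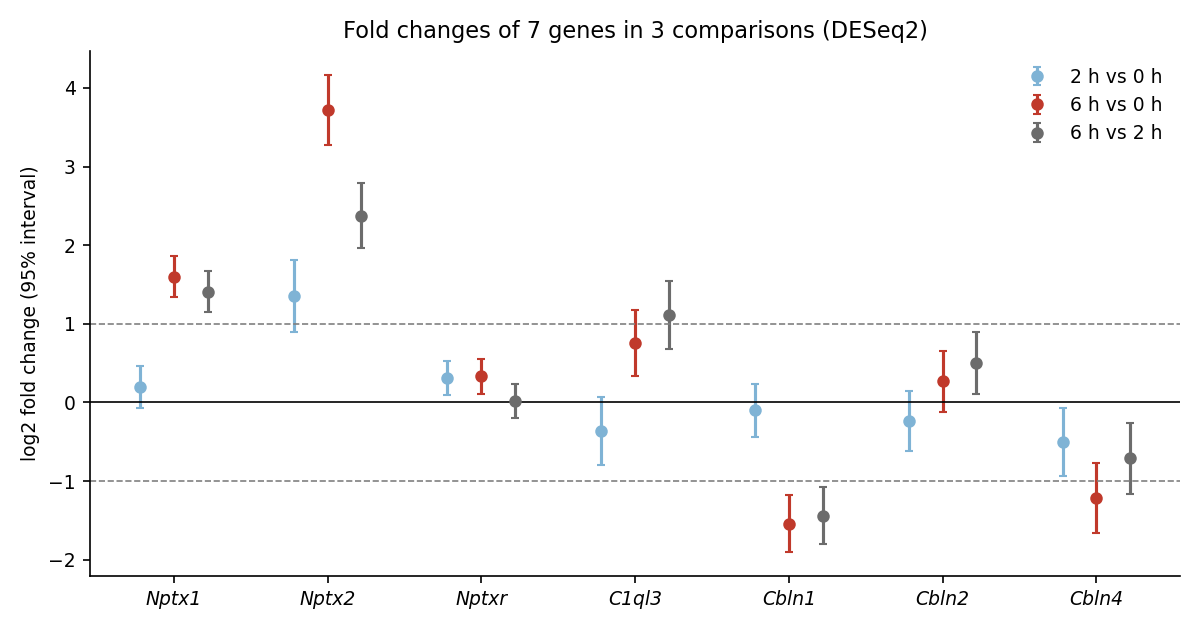
Log2 fold change from DESeq2 (vertical axis) of the 7 members with an adjusted p (horizontal axis) in each of the 3 comparisons, with bars for the 95% interval and dashed lines at the fold threshold of 1 and -1. Nptx2 lies above 1 in every comparison, and Cbln1 lies below -1 at 6 h against both earlier times.

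Compared per transcript length, the order of the members changed with time. At 0 h it ran from Nptxr (172 ± 5.27 TPM) through Cbln1, Cbln2 (18.4 ± 1.87), C1ql3 (13.2 ± 0.212), Cbln4 (8.51 ± 0.0283) and Nptx1 (5.62 ± 0.0495) to Nptx2 (2.48 ± 0.474) and C1ql2 (SD, n = 2 throughout), and no neighbours in this order overlapped. At 2 h Nptx1 (5.69 ± 0.0636 TPM), Nptx2 (5.6 ± 1.24) and Cbln4 (5.29 ± 0.912) overlapped each other in turn. At 6 h Nptx2 (28.9 ± 0.212 TPM) was second to Nptxr (190 ± 7.66). It was followed by Cbln2 (19.7 ± 1.07) and C1ql3 (19.6 ± 1.23), which overlapped, then Nptx1 (15 ± 0.0849), Cbln1 (6.99 ± 0.481) and Cbln4 (3.23 ± 0.198). Nptx2 thus moved from the seventh place to the second, and Cbln1 from the second to the sixth.

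Promoter windows, from 250 bases before to 50 bases after the start of the gene, were matched in RefSeq (GRCm38.p6) for 3 members. Those of C1ql3 and Cbln4 are shown because each gene was called and each window holds 1 match to the activity-linked motifs searched. The calls come from different comparisons: C1ql3 was higher at 6 h against 2 h only, and Cbln4 lower at 6 h against 0 h only. The sequences run 5' to 3' along the gene, with the match in capitals. The C1ql3 window (chr2:13010815-13011114, minus strand) lies inside the GENCODE span of the gene, so transcripts that start further upstream are annotated. The Cbln4 window is chr2:172043417-172043716, minus strand.
C1ql3: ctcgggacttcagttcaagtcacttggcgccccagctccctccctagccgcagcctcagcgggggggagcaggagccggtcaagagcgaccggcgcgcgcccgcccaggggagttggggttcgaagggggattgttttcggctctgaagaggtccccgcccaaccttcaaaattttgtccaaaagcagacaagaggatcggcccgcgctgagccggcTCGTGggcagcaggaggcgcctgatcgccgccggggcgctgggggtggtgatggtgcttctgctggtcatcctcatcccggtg
Cbln4: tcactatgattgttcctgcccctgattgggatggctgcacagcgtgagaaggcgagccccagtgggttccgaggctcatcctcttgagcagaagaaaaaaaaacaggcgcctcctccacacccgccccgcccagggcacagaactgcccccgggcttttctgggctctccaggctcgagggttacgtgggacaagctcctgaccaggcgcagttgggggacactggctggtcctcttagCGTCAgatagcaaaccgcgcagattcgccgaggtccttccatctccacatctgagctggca

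The letters searched on both strands were TGACGTCA (CRE), TGACG (the core of the CRE, contained in it), TGANTCA (AP-1), GCGTGGGCG (EGR), TCGTG (an NPAS4-type E-box) and the SRF CArG box. The C1ql3 window held TCGTG 33 bases before the start, a match that 16% of all 32851 windows also hold. The Cbln4 window held the core TGACG on the other strand, printed as CGTCA, 11 bases before the start, and 20.8% of all windows hold that motif. The C1ql2 window held none of these letters. A match describes the sequence only, and no binding was measured.

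Among all genes averaging 100 normalized counts or more, those with the profile most like that of each called member were found by Euclidean distance over the 6 libraries, on log2(normalized count + 1) relative to the mean at 0 h. Nptx1 had a close neighbour, Garem1 at a distance of 0.0794, followed by Sidt1 (0.191) and Spsb1 (0.192). Nptx2 had none as near: Fndc9 lay at 0.614, Uaca at 0.835 and Nup210l at 0.859. For C1ql3 the nearest were Hyls1 (0.142), Zmym2 (0.148) and Kmt5b (0.163). For Cbln1 they were Tbc1d9b (0.114), Sez6l (0.149) and 9530082P21Rik (0.158), and for Cbln4 they were Rps6ka5 (0.131), Mpp1 (0.149) and Lman1 (0.168).

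**Figure D4:**
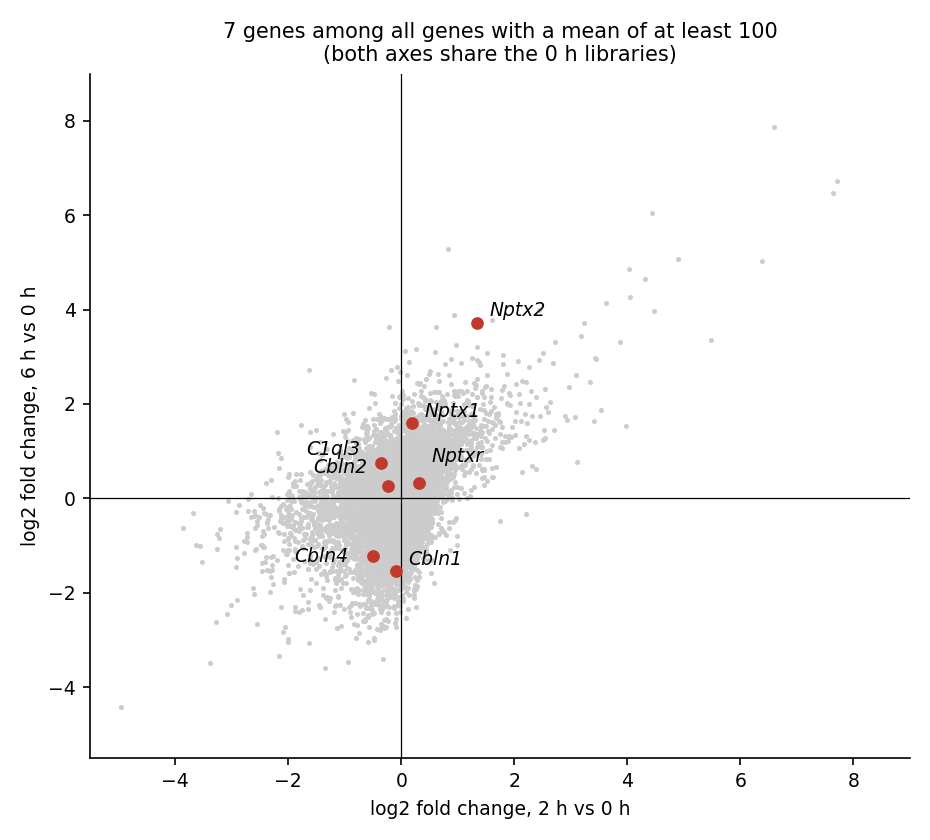
Log2 fold change at 2 h against 0 h (horizontal axis) and at 6 h against 0 h (vertical axis), both from DESeq2 and sharing the 0 h libraries, for genes averaging 100 normalized counts or more (grey) and 7 members (red, labelled). Nptx2 lies at 1.35 and 3.72, while Cbln1 lies at -0.10 and -1.54.

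Family members outside the 8 genes were scarce. C1ql4, Crp and Apcs had 0 counts in every library, while C1ql1, Cbln3 (9 to 44 expected counts), Ptx3 (43 to 65) and Ptx4 (1 to 14) could be tested. DESeq2 called 0 of these 4 in each of the 3 comparisons, with 0 at an unadjusted p under 0.05, and edgeR also called 0.

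Receptors and partners of these organizers, 17 genes in a list that holds AMPA, delta and kainate receptor subunits, neurexins, Adgrb receptors, Dcc, Neo1 and Adam17, were described in the same way. At 2 h against 0 h, 0 of 17 were called, beside 9.55% of all genes. In DESeq2 4 had an unadjusted p under 0.05, and edgeR also called 0. At 6 h, 1 was called against 0 h and 1 against 2 h, both lower, beside 19.3% and 18.1% of all genes in either direction. Without the fold threshold, 2 passed on adjusted p as higher and 0 as lower at 2 h against 0 h, beside 26.5% of all genes. At 6 h, 2 passed as higher and 6 as lower against 0 h, and 2 and 7 against 2 h, beside 45.3% of all genes in each. The median log2 fold change of the 17 was 0.08 at 2 h and -0.20 at 6 h against 0 h.

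The AMPA receptor subunits, which the pentraxins cluster, were not called. Gria1 was the subunit that differed most, with normalized counts of 12993 and 11988 before KCl, 14411 and 15893 at 2 h, and then 8870 and 7882 at 6 h. The 6 h libraries were below all others, and the log2 fold change at 6 h against 0 h was -0.58 (adjusted p = 1.16e-05). Gria3 stood at -0.42 in the same comparison (adjusted p = 0.0305), while Gria2 (-0.23) and Gria4 (-0.10) did not pass on p. Adam17, whose protein can release Nptxr from the membrane, did not pass on p in any comparison and shares exonic sequence on the opposite strand with Iah1 (mean expected count 197.3).

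Adgrb3, the receptor of C1q-like proteins, had normalized counts of 4518 and 4327 before KCl, 3855 and 3873 at 2 h, and then 2492 and 2526 at 6 h. It was lower at each later time with no overlap, and at 6 h against 0 h its log2 fold change was -0.82 (SE 0.10, adjusted p = 3.62e-16), below the fold threshold in size. Its relative Adgrb1 was called lower at 6 h against 2 h (log2 fold change -1.10, adjusted p = 1.21e-07), and stood at -0.88 against 0 h (adjusted p = 3.22e-05). Adgrb2 was 0.69 higher on the log2 scale at 2 h (adjusted p = 0.000111) and was lower again at 6 h (-0.88 against 2 h). The kainate receptor subunit Grik4 had normalized counts of 418.1 and 456.8 before KCl, 331.5 and 439.4 at 2 h, and then 185.1 and 228 at 6 h. The call at 6 h against 0 h was for a lower level (log2 fold change -1.08, SE 0.22, DESeq2 adjusted p = 7.36e-06), and without the first 6 h replicate its log2 fold change was -0.94 and the call was lost, as it was under the GC correction (-0.98), that correction with the replicate block (-0.99) and limma on log2(TPM + 1). Grik2 was 0.52 higher at 6 h than at 2 h on the log2 scale (adjusted p = 0.00988). The Adgrb1 call was lost without the second 2 h replicate (-0.85) and without the first 6 h replicate, and under the GC correction with or without the replicate block (-0.89), effective lengths (-0.95) and both limma scales (-0.93 and -0.88).

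Of the cerebellin partners, the delta receptor Grid1 and the neurexin Nrxn2 did not pass on p in any comparison. Nrxn3 was higher at 2 h (log2 fold change 0.37, adjusted p = 0.00506) and at 6 h (0.36, adjusted p = 0.00313) than at 0 h, below the fold threshold. The Cbln4 receptors differed in direction. Neo1, with normalized counts of 12796 and 12578 at 0 h and 17161 and 17068 at 6 h, was higher at 6 h by 0.43 on the log2 scale (adjusted p = 2.07e-06). Dcc, with 877.1 and 913.5 at 0 h and 627 and 618.4 at 6 h, stood at -0.52 (adjusted p = 0.000518). Neither reached the fold threshold.

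**Figure D5:**
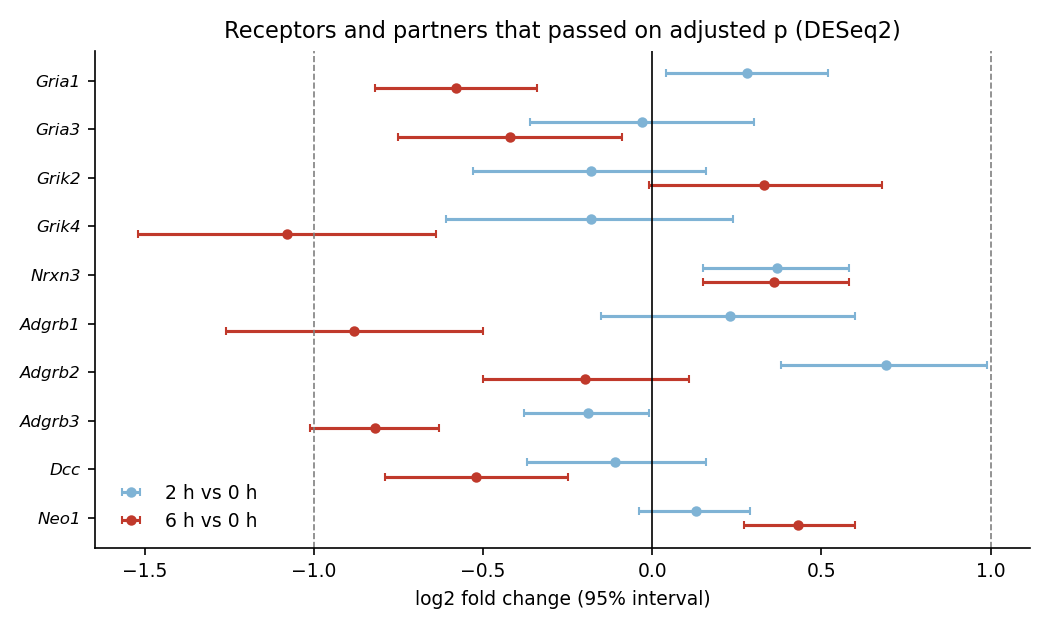
Log2 fold change (horizontal axis, DESeq2) of the 10 receptor and partner genes that passed on adjusted p in at least 1 of the 3 comparisons (vertical axis) at 2 h and at 6 h, each against 0 h, with bars for the 95% interval and dashed lines at the fold threshold of 1 and -1. Grik4 at 6 h is the one value past the threshold.

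A list of 54 other synapse organizers, adhesion molecules and secreted factors with similar tasks, gave 53 genes with an adjusted p. At 2 h against 0 h 1 was called higher and 5 lower, at 6 h against 0 h 6 higher and 3 lower, and at 6 h against 2 h 7 higher and 3 lower. Their called share was 11.3%, 17% and 18.9% in the 3 comparisons, beside 9.55%, 19.3% and 18.1% of all genes. Of the 7 tested members, 4 were called at 6 h against 0 h. Lrrc4, an adhesion molecule of excitatory synapses, rose from 1452 and 1461 normalized counts at 0 h to 4354 and 4353 at 6 h (log2 fold change 1.58, adjusted p = 3.21e-57). Lgi1, a secreted partner of ADAM-family receptors at synapses, rose with a log2 fold change of 1.22 (adjusted p = 1.32e-19). Slitrk4 was called at 1.59 (SE 0.50, adjusted p = 0.00499), and Lrrtm2 at 1.00 (SE 0.30, adjusted p = 0.00284). Without the first or the second 6 h replicate the Slitrk4 log2 fold change was 1.61 or 1.55, but the adjusted p missed the threshold and the call was lost. The Lrrtm2 call was lost without the second 0 h replicate (0.90) or the first 6 h replicate (0.93), and also under edgeR, TMM factors, library totals, effective lengths, both limma scales and the GC correction with or without the replicate block (0.76 to 0.97). The Lgi1 call was lost under library totals (0.97) and in limma on log2(TPM + 1) (0.99). Wnt7a fell from 630.3 and 638.8 normalized counts at 0 h to 194.7 and 240.9 at 6 h (log2 fold change -1.54, adjusted p = 1.61e-15), and the neuroligin Nlgn3 fell with a log2 fold change of -1.38 (adjusted p = 1.97e-29).

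In bulk RNA, fewer cells of a type and less RNA per cell cannot be told apart, and cell-type markers moved beside these results. The summed level of 6 neuronal genes was 5058 to 5590 TPM. At 6 h against 0 h, 1 of the 6 was called lower (Tubb3 at -1.01 on the log2 scale), while Snap25 (0.89), Map2 (0.42), Syt1 (0.36) and Stmn2 (0.21) were higher, passing on adjusted p below the fold threshold. The summed level of 10 inhibitory neuron genes was 637 and 696 TPM at 0 h, 815 and 948 at 2 h, then 1090 and 1097 at 6 h, with 3 of 10 called higher at 6 h (Gad1 at 1.41, Gad2 at 1.36 and Sst at 1.05 on the log2 scale). That list was split too: Lhx6 stood at -0.10 and Dlx2 at 0.12 at 6 h against 0 h, and Dlx2 and Dlx5 were called higher at 2 h (1.12 and 1.62) and lower at 6 h than at 2 h. The summed level of 8 excitatory neuron genes was 477 and 472 TPM at 0 h and 636 and 653 at 6 h, with 1 of 8 called higher (Fezf2 at 1.45). The members of the excitatory list also differed: at 6 h against 0 h Neurod6 stood at 0.72 on the log2 scale (adjusted p = 1.16e-11), while Slc17a7 stood at -0.44 (adjusted p = 0.00749) and Bcl11b at -0.03. Of 7 astrocyte genes 0 were called in any of the 3 comparisons by DESeq2 or edgeR (0, 3 and 3 had an unadjusted p under 0.05 in DESeq2). Their summed level was 517 and 560 TPM at 0 h and 426 and 411 at 6 h. At 6 h against 0 h Slc1a2 (-0.61), Gfap (-0.63) and Aldh1l1 (-0.41) were lower on the log2 scale, passing on adjusted p below the fold threshold. Aqp4 (-0.15), Slc1a3 (-0.03), S100b (0.02) and Sox9 (0.04) did not pass. Microglial genes summed to 3.78 to 10.5 TPM and endothelial and mural genes to 2.03 to 2.88 TPM. The part of cell composition in the changes of Nptx1, Nptx2, C1ql3, Cbln1 and Cbln4 was not tested.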

How the data were processed

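RNA-seq of 6 libraries (3 times in KCl, 2 replicates each) was analysed. Bisulfite libraries were not analysed here. RNA, per the labels, was poly(A)-selected and stranded libraries were read as 150-base pairs. The authors trimmed reads at quality 30. The submitters' processing notes name Bowtie2 2.2.9, RSEM 1.3.0 and mm10, while the annotation release and strand setting were not given in the sources used here. The expected counts deposited by the authors are RSEM estimates without normalization, and the deposited TPM values are scaled by length and library. The deposited effective lengths, in bases, were used as offsets in an alternative.

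Of 43432 listed genes, 42548 were matched to a symbol and position in GENCODE M21 (GRCm38). Expected counts were rounded and fitted with DESeq2 1.42.0 in R 4.3.3, with all 6 libraries and the time as the only term. The use of DESeq2 and the thresholds follow the methods of the study, while the joint fit and the rounding were chosen here. Fold changes were not shrunken. Alternatives were edgeR 4.0.16 (quasi-likelihood), TMM factors, library totals, a minimum mean count of 10, effective lengths, a GC correction, a replicate block, limma 3.58.1 on log2(TPM + 1) or log2(TPM + 0.1), and leaving out each library. Counts carry no molecular identifiers. The SE, intervals and p-values rest only on the spread between these libraries.

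Text names cover all members, relatives and receptors (some listed receptors and partners are counted in the list but not reported here by name), the 3 nearest profiles of each called member, and the organizers with the 3 largest and 3 smallest log2 fold changes at 6 h against 0 h among calls averaging 100 normalized counts or more. Since 2 such organizers were lower, the third smallest, Lrrtm2, was higher. Organizers named under the other observations were chosen after their values were seen. Members and lists were chosen with earlier results of these data known. Promoter sequences are from RefSeq (GRCm38.p6).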

Additional observations from a re-analysis of the deposited data

How the results depend on the processing

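Over 16 alternatives, 334 of 336 member fold changes stayed on the same side of the thresholds, 2 lost a call and 0 called values reversed. The uncalled Nptxr difference between 2 h and 6 h changed sign in 5 alternatives (range -0.06 to 0.20). Members called at 2 h were 0 in limma on log2(TPM + 1), against 1. Without one library, members called at 6 h against 2 h ranged from 3 to 4. Receptor calls at 6 h against 0 h, 1 in the reported fit, were 0 under the GC correction, 0 in limma on log2(TPM + 1), 0 with a replicate block and GC correction, 3 under library totals, and 0 to 1 without one library. Receptor calls at 6 h against 2 h, also 1, were 0 under the GC correction, effective lengths, both limma scales and the block with GC correction, and 0 to 3 without one library. Organizer calls at 6 h against 0 h went from 9 to 5 under library totals and 4 in limma on log2(TPM + 1). At 6 h against 2 h they went from 10 to 6 under the GC correction with or without the block. All calls at 6 h against 2 h went from 2970 to 1870 in limma on log2(TPM + 1). Library totals moved the median of 14668 genes to -0.16 at 2 h and -0.25 at 6 h, and the higher share of calls at 6 h from 45.5% to 27.3%. The cause was not tested.

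Whether same-numbered replicates pair is undecided: their deviations correlated at 0.25, -0.0141 and 0.145. The reported fit has no block, since the methods of the study describe none. With the replicate block, members called were 1, 4 and 4, receptors 0, 1 and 1, organizers 6, 9 and 10, and all genes 1515, 3169 and 2866 (1609, 3333 and 2970 without it). Depth limits C1ql2 and the scarce relatives, and 2 replicates per time limit every comparison.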

Other observations

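Several other synapse organizers, chosen after their values were seen, had a minimum or maximum at 2 h that the comparison of 6 h with 0 h does not show. Slitrk1, Slitrk3 and Slitrk5 encode adhesion molecules of the Slitrk family. Slitrk1 had normalized counts of 1590 and 1673 before KCl, 521.3 and 572.7 at 2 h, and then 1943 and 2240 at 6 h. Both 2 h libraries were far under the others, with a log2 fold change of -1.58 at 2 h against 0 h (SE 0.14, DESeq2 adjusted p = 5.06e-27) and 1.94 at 6 h against 2 h. Slitrk3 and Slitrk5 fell at 2 h with log2 fold changes of -1.22 and -1.15 and rose from 2 h to 6 h by 1.40 and 1.38. Il1rapl1, another adhesion molecule, was called at -1.18 at 2 h (adjusted p = 0.00618) and 1.48 at 6 h against 2 h, and its 2 h call was lost without the first 0 h replicate (-0.96) and without the second 2 h replicate (-0.73). Under the GC correction and under that correction with the replicate block, both Il1rapl1 calls were lost (-0.96 and -0.98 at 2 h against 0 h, 0.96 and 0.98 at 6 h against 2 h). With Wnt7a these are the 5 organizers, of 53 with an adjusted p, called lower at 2 h, beside 5.94% of all genes.

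Lrrtm1, a leucine-rich adhesion molecule that binds neurexins, was the 1 organizer of 53 called higher at 2 h, beside 3.62% of all genes. Its normalized counts were 648.9 and 723.1 before KCl, 2137 and 2461 at 2 h, and then 1473 and 1423 at 6 h. The 2 h libraries were the highest and the 0 h libraries the lowest, with a log2 fold change of 1.74 at 2 h (SE 0.14, DESeq2 adjusted p = 5.51e-34) and 1.08 at 6 h against 0 h. The 6 h call was lost under library totals (0.83) and in limma on log2(TPM + 0.1) (0.93) and log2(TPM + 1) (0.90).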
